A study of Mus musculus with 7 samples.

Results

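The metalloproteinases of the ADAM, ADAMTS and MMP families, the ADAMTS-like proteins and the tissue inhibitors of metalloproteinases (TIMPs) were examined in the lower incisor epithelium of newborn (PN0) mice with and without Nogo-A. Genes were taken by their mouse symbol on GRCm38 (Adam, Adamts, Adamtsl or Mmp followed by a number, and Timp1 to Timp4) and kept when at least 10 counts were found in 2 or more of the 7 count files. 1 gene of this name pattern is not described here. Of the other 83 genes, 53 were kept, out of 25700 genes in the files. They comprised 14 of 33 ADAM genes, 18 of 19 ADAMTS genes, 5 of 5 ADAMTSL genes, 13 of 22 MMP genes and 3 of 4 TIMP genes. All 53 also passed the filter of the statistical test, which 14791 genes passed.

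Libraries came from 4 K14;Nogo-A pups (genotype K14cre cre/+; Nogo-A fl/fl, replicates 1, 2, 7 and 10) and 3 wild-type pups (genotype wt, replicates 3, 8 and 9), with both lower incisors of a pup pooled. In K14;Nogo-A mice the keratin 14 promoter drives Cre recombinase in epithelial cells, where it deletes the part of Rtn4 that is specific to Nogo-A, and cells outside the epithelium keep the floxed allele. The wild-type pups were littermate controls labelled wt, and whether any of them carried Cre or the floxed allele alone is not stated. The posterior part of the dental epithelium was separated from the mesenchyme with the enzyme Dispase, and poly(A) RNA was sequenced. The remaining wild-type pup was not analysed here.

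ADAMs are membrane proteins, many of which cut other membrane proteins such as growth factor precursors, Notch receptors and cadherins, and thereby release or activate them. ADAMTS proteinases are secreted and act on proteoglycans, procollagens and fibrillin microfibrils, and ADAMTS-like proteins share their ancillary domains but lack the proteinase domain. MMPs degrade collagens, basement membranes and other matrix proteins, TIMPs inhibit MMPs and some ADAM and ADAMTS enzymes, and in the developing tooth these enzymes remodel the matrix between epithelium and mesenchyme.

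Library totals lay between 20929207 and 41219439 counts. Counts of Rtn4 over the whole gene were 296.9 to 343.8 CPM (counts scaled to the size of the library) in K14;Nogo-A versus 276.6 to 346.2 CPM in wild-type, a measure that does not isolate the deleted part and so does not check the genotype. Markers of epithelium were abundant in every library, with a mean log2 CPM of 7.05 to 7.35 in K14;Nogo-A versus 6.84 to 7.25 in wild-type over 18 genes. The libraries also held mesenchymal transcripts. The 15 mesenchyme markers that are neither among the 53 genes nor among their listed partners had a mean log2 CPM of 6.41 to 6.51 in K14;Nogo-A versus 6.87 to 7.08 in wild-type, without overlap. Uty, Kdm5d, Eif2s3y and Ddx3y, which lie on the Y chromosome, each had 10 or more counts in 1 of 4 K14;Nogo-A and 2 of 3 wild-type libraries.

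The catalytic members share a zinc-binding stretch in which 3 histidines hold the zinc ion and a glutamate acts in catalysis. A stretch of this spacing was found in the coding sequence of all 18 ADAMTS and all 13 MMP genes and in 9 of 14 ADAM genes, thus in 40 of the 53, and in none of the ADAMTSL and TIMP genes. The codons of this stretch are shown for the 7 genes that have it and passed the study's thresholds, described further on, with the codons of the histidines and the glutamate in capitals (GENCODE M21 transcripts, GRCm38).
Adam12 (chr7:133961158-133961190, minus strand): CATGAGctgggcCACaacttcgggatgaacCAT
Adamts2 (chr11:50775403-50776134, plus strand): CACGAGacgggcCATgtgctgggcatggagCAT
Adamts4 (chr1:171253210-171253915, plus strand): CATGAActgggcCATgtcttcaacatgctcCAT
Adamts12 (chr15:11241529-11255564, plus strand): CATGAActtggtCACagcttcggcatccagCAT
Mmp2 (chr8:92839279-92839311, plus strand): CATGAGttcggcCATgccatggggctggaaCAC
Mmp13 (chr9:7276573-7276605, plus strand): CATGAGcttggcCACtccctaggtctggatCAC
Mmp16 (chr4:18051748-18051780, plus strand): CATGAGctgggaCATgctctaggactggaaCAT
The stretch spans an intron in Adamts2, Adamts4 and Adamts12, whose coordinates include it, and lies within 1 exon in Adam12, Mmp2, Mmp13 and Mmp16. Adam23 and Adamtsl3, which also passed the thresholds, lack it.

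The transcript level of the 53 genes covered a wide range. Expressed per length of exon as RPKM (CPM per kilobase of exon), 12 genes had a mean of 10 or more over the 7 libraries, 23 had between 1 and 10, and 18 had less than 1. Mmp2, a gelatinase that degrades type IV collagen, had 80.2 ± 5.96 RPKM in K14;Nogo-A versus 116.5 ± 12.6 RPKM in wild-type (SD, n = 4 and n = 3 pups). Mmp14, the membrane-bound activator of proMMP-2, had 81.7 ± 4.80 RPKM in K14;Nogo-A versus 93.5 ± 7.45 RPKM in wild-type. Mmp9, the other gelatinase, had 75.5 ± 35.3 RPKM in K14;Nogo-A versus 101.8 ± 21.9 RPKM in wild-type. Mmp2 was the most abundant over the 7 libraries, but within K14;Nogo-A the levels of these genes did not differ beyond their spread and Mmp14 had the highest mean. Together these 3 made up 86.2% of the summed MMP level.

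**Figure D1:**
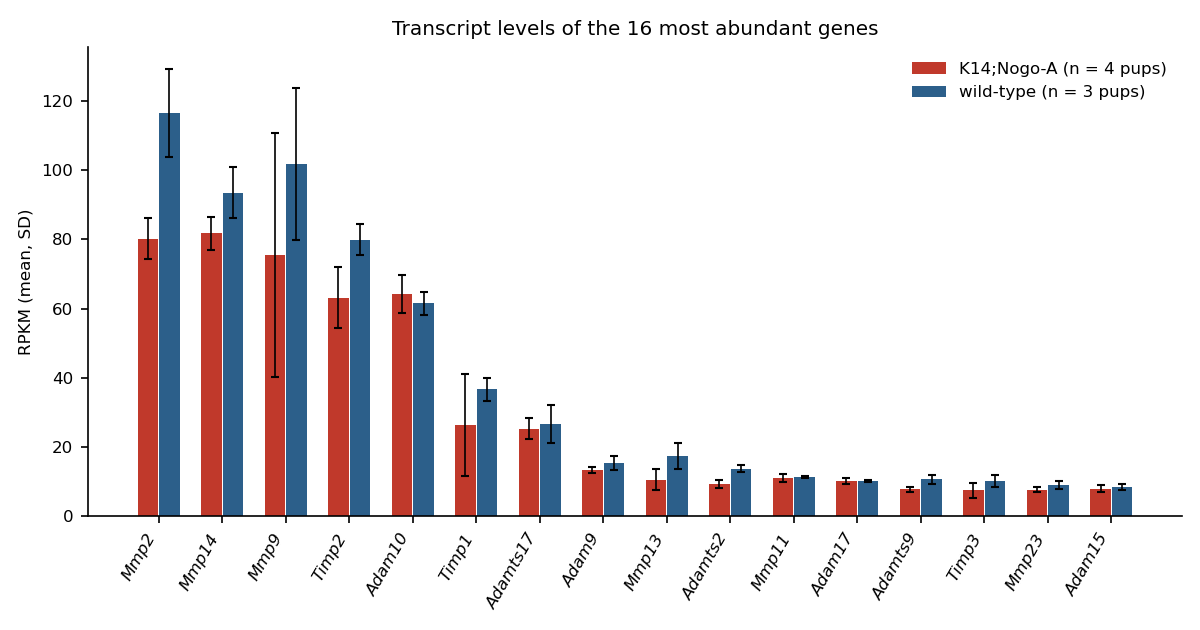
Mean RPKM of the 16 most abundant of the 53 genes in K14;Nogo-A (red, n = 4 pups) and wild-type (blue, n = 3 pups), with SD as error bars. Mmp2, Mmp14, Mmp9, Timp2 and Adam10 lie above all others, and Mmp9 and Timp1 have the widest error bars in K14;Nogo-A.

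Each of the other families was likewise dominated by few genes. Adam10 accounted for 56.8% of the summed ADAM RPKM, Adamts17 for 37.2% of that of ADAMTS, Adamtsl5 for 59.4% of that of ADAMTSL and Timp2 for 64% of that of TIMP. Adam10, which cuts Notch receptors and E-cadherin, had 64.2 ± 5.37 RPKM in K14;Nogo-A versus 61.5 ± 3.29 RPKM in wild-type. Adam17, the shedding enzyme of TNF and several EGF receptor ligands, had 10.3 ± 0.893 RPKM in K14;Nogo-A versus 10.2 ± 0.392 RPKM in wild-type.

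The genes left out by the count rule were 19 ADAM, 9 MMP, 1 ADAMTS and 1 TIMP gene. Of these 30, 18 had no count in any library, and none of the others exceeded 8 counts in a library. Many lie in gene clusters. On chromosome 9, the MMP genes Mmp13, Mmp12, Mmp1b, Mmp3, Mmp1a, Mmp10, Mmp8, Mmp27 and Mmp7 lie between 7272514 and 7699585, and of these 9 Mmp13 and Mmp8 passed the rule. Of the 19 ADAM genes left out, 10 are on chromosome 8. Just inside the rule were Adam32, with 7, 6, 8 and 6 counts in K14;Nogo-A versus 16, 15 and 3 counts in wild-type, and Mmp8, with 3 files at 10 or more counts. Just outside were Adam4 and Adam21, each with at most 8 counts in a library.

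K14;Nogo-A was compared with wild-type to ask how the deletion of Nogo-A in the epithelium relates to the expression of these genes. In edgeR's quasi-likelihood test, 1 of the 53 genes fell (adjusted p under 0.05), against 0.0338% of all genes tested, and 0 rose, against 0% of all genes. At the thresholds used in the study, unadjusted p no larger than 0.05 and log2 fold change of 0.5 or more in size, 9 genes were lower in K14;Nogo-A, where the share over all genes was 2.74%, and 0 were higher, where it was 2.02%. An unadjusted p of 0.05 or less without a fold threshold was reached by 15 genes lower in K14;Nogo-A (6.66% of all genes) and by 0 higher (6.25%). In 12 genes every K14;Nogo-A library lay below every wild-type library (6.09% of all genes), and in 0 every one lay above (5.43%). The exact two-sided permutation test on log2 CPM gave the smallest p that 7 libraries allow, 0.0286, for 7 genes, all lower in K14;Nogo-A (3.04% of all genes).

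The median log2 fold change of the 53 genes was -0.28, against -0.01 over all genes tested, and 42 of the 53 had a negative value, against 51.5% of all genes. The families differed in their medians, which were -0.04 for ADAM, -0.45 for ADAMTS, 0.01 for ADAMTSL, -0.36 for MMP and -0.45 for TIMP. Negative values were found for 8 of 14 ADAM, 17 of 18 ADAMTS, 2 of 5 ADAMTSL, 12 of 13 MMP and 3 of 3 TIMP genes. Leaving out 1 library at a time gave 0 to 7 genes that fell, 7 without K14;Nogo-A replicate 1, where 221 of all genes were called. It gave 8 to 13 genes lower at the thresholds, without the share over all genes in these fits. The differences between families were not tested. The 40 genes with the zinc-binding stretch had a median of -0.28 and the 13 without it -0.21.

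**Figure D2:**
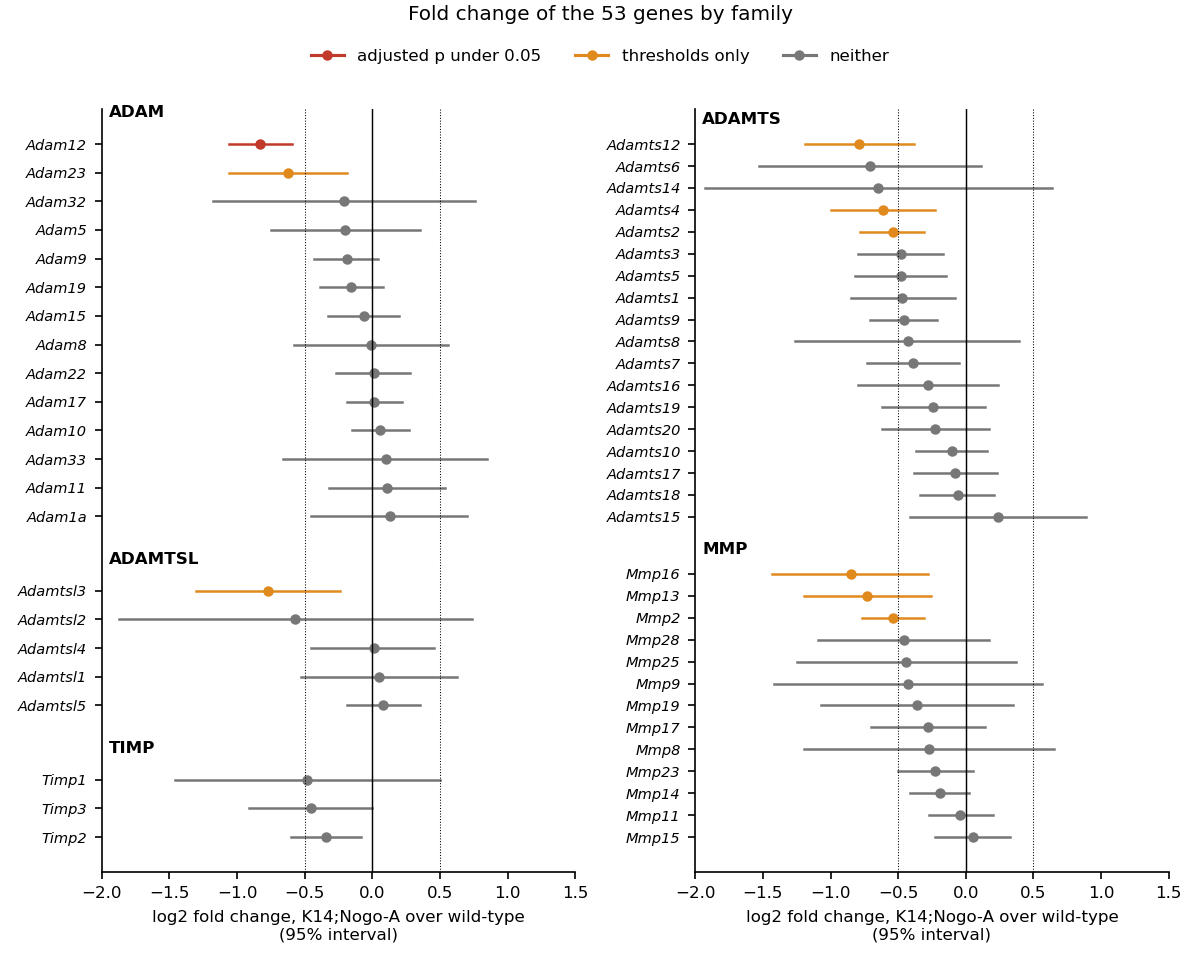
Log2 fold change of each of the 53 genes, K14;Nogo-A over wild-type, with the 95% interval of the edgeR fit, grouped by family (red, adjusted p under 0.05; orange, past the study's thresholds only; grey, neither; dotted lines at -0.5 and 0.5). Adam12 is the 1 gene in red, and 17 of 18 ADAMTS and 12 of 13 MMP points lie left of 0.

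The mean log2 CPM of the ADAMTS genes, set against their mean over the 7 libraries, was -0.19 to -0.13 in K14;Nogo-A versus 0.17 to 0.25 in wild-type. That of the TIMP genes was -0.35 to -0.12 in K14;Nogo-A versus 0.24 to 0.35 in wild-type. For the MMP genes it was -0.35 to 0.10 in K14;Nogo-A versus 0.11 to 0.35 in wild-type, with replicate 7 the highest of the K14;Nogo-A libraries. The mesenchyme markers on the same scale were -0.27 to -0.17 in K14;Nogo-A versus 0.19 to 0.41 in wild-type, and the 18 epithelium markers -0.12 to 0.18 in K14;Nogo-A versus -0.33 to 0.09 in wild-type. All 23 tested genes of the full mesenchyme list had negative fold changes, with a median of -0.52, 7 of them lower at the thresholds, and no gene of it was at 0. Other marker lists of cells outside the epithelium went both ways. The 9 skeletal muscle genes were at a low level, with a sum of 4.06 to 24.7 CPM in K14;Nogo-A versus 8.55 to 15.8 CPM in wild-type. For skeletal muscle the median was 0.40 (0 of 7 genes negative, 1 higher at the thresholds). For Schwann cells and neurons it was 0.06 (3 of 7 negative, 1 higher). In the remaining lists it was negative, with -0.25 for osteoclasts and -0.23 for neutrophils. The 8 neutrophil genes were also low, with a sum of 3.32 to 7.46 CPM in K14;Nogo-A versus 4.87 to 6.09 CPM in wild-type. The median was -0.49 for endothelium (9 of 10 genes negative, 5 lower at the thresholds) and -0.64 for odontoblasts and osteoblasts (7 of 8 negative, 1 lower). It was -0.44 for cartilage (7 of 7 negative, 0 lower) and -0.35 for macrophages and leukocytes (9 of 10 negative, 1 lower). For epithelium, by contrast, it was 0.14 (2 of 18 negative, 4 higher). For ameloblasts it was 0.78 (2 of 10 negative, 3 higher), the negative ones being Dspp (-0.76) and Wdr72 (-0.45). The part of these other cells in the differences was not tested, and that of mesenchymal RNA in the differences of the metalloproteinase genes cannot be told apart from the genotype, since the 2 genotypes do not overlap in these markers. With the 15 markers as a covariate the edgeR fit called 0 of the 53 genes at an adjusted p under 0.05. It also called 0 of all genes tested, so the loss of calls was not particular to the 53. The median of the 53 genes in this fit was 0.09, against -0.02 over all genes. The sign of the fold change turned in 28 of the 53, and the share of all genes in which it turned is not given here. Among the 15 genes with an unadjusted p of 0.05 or less without the covariate, the 8 that turned were Adam23, Adamts1, Adamts3, Adamts4, Adamtsl3, Mmp2, Mmp13 and Timp2. The turned values of these 8 were not distinct from 0, with standard errors of 0.33 to 1.02 and unadjusted edgeR p of 0.48 to 0.913. In bulk tissue, fewer cells of a type and less RNA per cell cannot be told apart.

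**Figure D3:**
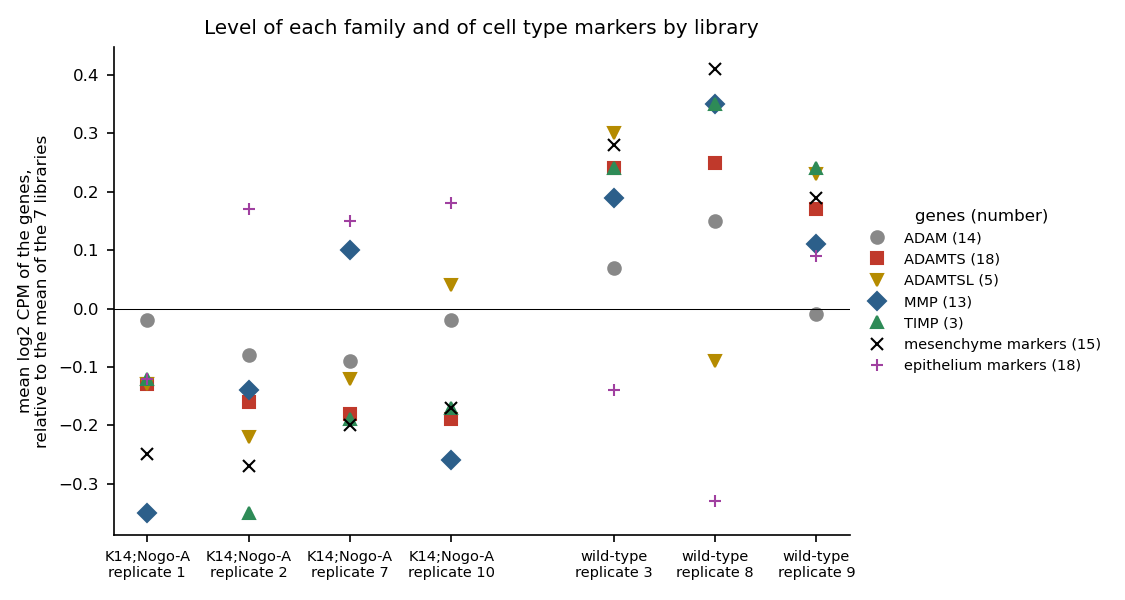
Mean log2 CPM of each gene family and of 15 mesenchyme and 18 epithelium markers in each library, relative to the mean of the 7 libraries. The ADAMTS, TIMP and mesenchyme marker points are below 0 in all 4 K14;Nogo-A libraries and above 0 in all 3 wild-type libraries.

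Among the ADAMs, Adam12 fell in K14;Nogo-A. Adam12 (ENSMUSG00000054555, GRCm38 chromosome 7 from 133883199 to 134232146) encodes meltrin alpha, a proteinase of mesenchymal and muscle precursor cells that can release HB-EGF and cut IGF-binding proteins. It had 41.3, 33.1, 38.5 and 36.5 CPM in K14;Nogo-A replicates 1, 2, 7 and 10 versus 66.3, 73.2 and 59.0 CPM in wild-type replicates 3, 8 and 9. The highest K14;Nogo-A value was well below the lowest wild-type value. The log2 fold change was -0.83 (SE, standard error, 0.11, edgeR adjusted p = 0.0276). The call was kept without K14;Nogo-A replicate 1 (edgeR adjusted p = 0.00859) and without wild-type replicate 9 (edgeR adjusted p = 0.0127). It was lost when any one of the other 5 libraries was left out, with edgeR adjusted p of 0.12 to 0.188 and log2 fold changes of -0.84 to -0.75. In the fit adjusted for mesenchyme markers the log2 fold change was -0.19 (edgeR adjusted p = 0.959).

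Adam23, which lacks the zinc-binding stretch and acts in adhesion as a partner of LGI proteins and integrins, was lower at the thresholds. Its level was 19.3, 10.2, 12.2 and 15.8 CPM in K14;Nogo-A replicates 1, 2, 7 and 10 versus 20.5, 25.9 and 19.7 CPM in wild-type replicates 3, 8 and 9. The groups touched closely, with K14;Nogo-A replicate 1 next to wild-type replicate 9. The log2 fold change was -0.62 (SE 0.20, edgeR adjusted p = 0.262). It missed the thresholds once K14;Nogo-A replicate 2 (-0.49) or replicate 8 of the wild-type (-0.48) was left out, and when adjusted for the Y-linked genes (-0.47).

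The abundant sheddases lay close to 0. Adam10 had a log2 fold change of 0.06 with a 95% interval of -0.15 to 0.27, and Adam17 one of 0.01 with an interval of -0.19 to 0.22. Differences larger than these bounds are outside the intervals of the fit without a covariate, and smaller ones lie within them. With the mesenchyme markers as a covariate the values were -0.25 (SE 0.37) for Adam10 and -0.19 (SE 0.37) for Adam17. The ratio of Adam10 to Adam17 in RPKM was 5.99 to 6.32 over the K14;Nogo-A libraries and 5.95 to 6.14 over the wild-type libraries. Adam9, a widely expressed ADAM with a role in cell adhesion and shedding, had a log2 fold change of -0.19 (95% interval -0.43 to 0.04), and Adam15, an ADAM that binds integrins through its disintegrin domain, had one of -0.06 (95% interval -0.33 to 0.20). An exon of Adam17 overlaps the opposite-strand gene Iah1 over 311 bases, and since no strand setting is known for the counting, reads of such gene pairs cannot be told apart.

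The ADAMTS procollagen N-propeptidases, which remove the amino-terminal propeptide of fibrillar procollagens, are Adamts2, Adamts3 and Adamts14. Adamts2 was lower at the thresholds, with 97.0, 76.6, 82.1 and 98.1 CPM in K14;Nogo-A replicates 1, 2, 7 and 10 versus 124.8, 121.8 and 140.1 CPM in wild-type replicates 3, 8 and 9. The K14;Nogo-A libraries did not reach the wild-type range, and the log2 fold change was -0.54 (SE 0.11, edgeR adjusted p = 0.152). Without K14;Nogo-A replicate 2 it was -0.48 and without wild-type replicate 9 it was -0.47, short of the fold threshold. Adamts3, which also takes part in the activation of VEGF-C, had 12.6, 17.5, 14.8 and 15.8 CPM in K14;Nogo-A versus 17.8 to 24.5 CPM in wild-type (log2 fold change -0.48, SE 0.14, edgeR adjusted p = 0.237). Here the highest K14;Nogo-A library and the lowest wild-type library were almost equal.

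Adamts14 showed a different spread. It had 29.3, 7.38, 8.72 and 21.9 CPM in K14;Nogo-A replicates 1, 2, 7 and 10 versus 25.7, 20.4 and 33.0 CPM in wild-type replicates 3, 8 and 9, with a log2 fold change of -0.65 and a 95% interval of -1.93 to 0.64. Replicates 1 and 10 were at the wild-type level and replicates 2 and 7 well below it. Of the summed RPKM of these 3 enzymes, Adamts2 supplied 56.6% to 66.7% in K14;Nogo-A versus 60.2% to 60.9% in wild-type, whereas Adamts14 supplied 11.1% to 30.7% in K14;Nogo-A versus 18.3% to 25.8% in wild-type.

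The ADAMTS proteoglycanases cut aggrecan, versican and related core proteins, and 7 of them were measured. Their median log2 fold change was -0.46, and 1 of 7, Adamts4, was lower at the thresholds. Adamts4, an aggrecanase, had 4.62, 6.54, 7.08 and 5.87 CPM in K14;Nogo-A replicates 1, 2, 7 and 10 versus 9.23, 10.4 and 7.97 CPM in wild-type replicates 3, 8 and 9. The groups did not overlap, and the log2 fold change was -0.61 (SE 0.18, edgeR adjusted p = 0.229).

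A further 3 proteoglycanases had an unadjusted p of 0.05 or less and missed the fold threshold. Adamts9, a versican-cleaving enzyme and the most abundant of them, had 121.0, 129.7, 117.9 and 99.4 CPM in K14;Nogo-A versus 170.1, 137.5 and 174.8 CPM in wild-type (log2 fold change -0.46, SE 0.11, edgeR adjusted p = 0.199). Its exons overlap those of the opposite-strand genes A730049H05Rik and Gm15737. Adamts5, the other main aggrecanase, had 9.65 to 14.1 CPM in K14;Nogo-A versus 16 to 18.5 CPM in wild-type (log2 fold change -0.48, SE 0.15, edgeR adjusted p = 0.258). Adamts1, a versican-cleaving enzyme that lies beside Adamts5 on chromosome 16, had 7.63 to 11.1 CPM in K14;Nogo-A versus 10.1 to 15.7 CPM in wild-type (log2 fold change -0.47, SE 0.18, edgeR adjusted p = 0.308). The groups were separate in Adamts9 and Adamts5 and overlapped in Adamts1.

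Both ADAMTS enzymes that cut cartilage oligomeric matrix protein were at or under an unadjusted p of 0.05. Adamts12 had 8.22, 5.13, 7.78 and 5.99 CPM in K14;Nogo-A replicates 1, 2, 7 and 10 versus 13.2, 11.7 and 10 CPM in wild-type replicates 3, 8 and 9. The groups did not overlap, and the log2 fold change of -0.79 (SE 0.18, edgeR adjusted p = 0.184) was the largest in size among the ADAMTS genes. Adamts7, its closest relative, had 5.83 to 8.13 CPM in K14;Nogo-A versus 8.54 to 9.41 CPM in wild-type (log2 fold change -0.39, SE 0.16, edgeR adjusted p = 0.319), and shares 122 exon bases with the opposite-strand gene Tbc1d2b.

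The 6 remaining ADAMTS genes had a median of -0.17, and none was at the thresholds. The most abundant ADAMTS gene per length, Adamts17, belongs here. It is linked to fibrillin microfibrils and had 172.0, 204.6, 185.0 and 225.2 CPM in K14;Nogo-A versus 181.8, 182.9 and 257.7 CPM in wild-type. The groups overlapped, and the log2 fold change was -0.08 with a 95% interval of -0.38 to 0.23.

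Of the ADAMTS-like genes, which encode matrix proteins without enzymatic activity, Adamtsl3 was lower at the thresholds. It was sparsely expressed, with 1.48, 1.77, 2.09 and 1.75 CPM in K14;Nogo-A replicates 1, 2, 7 and 10 versus 3.82, 3.02 and 2.16 CPM in wild-type replicates 3, 8 and 9. Wild-type replicate 9 was close to the K14;Nogo-A libraries, and the log2 fold change was -0.77 (SE 0.24, edgeR adjusted p = 0.254). Without wild-type replicate 3 it was -0.55 and missed the p threshold. The most abundant gene of this family, Adamtsl5, a fibrillin-binding protein, had a log2 fold change of 0.08 (95% interval -0.19 to 0.35). Adamtsl1 and Adamtsl4 had values of 0.05 and 0.01, with 95% intervals of -0.53 to 0.63 and -0.45 to 0.46. Adamtsl2, whose protein binds LTBP1 and fibrillin, had -0.57 with an interval of -1.87 to 0.74.

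**Figure D4:**
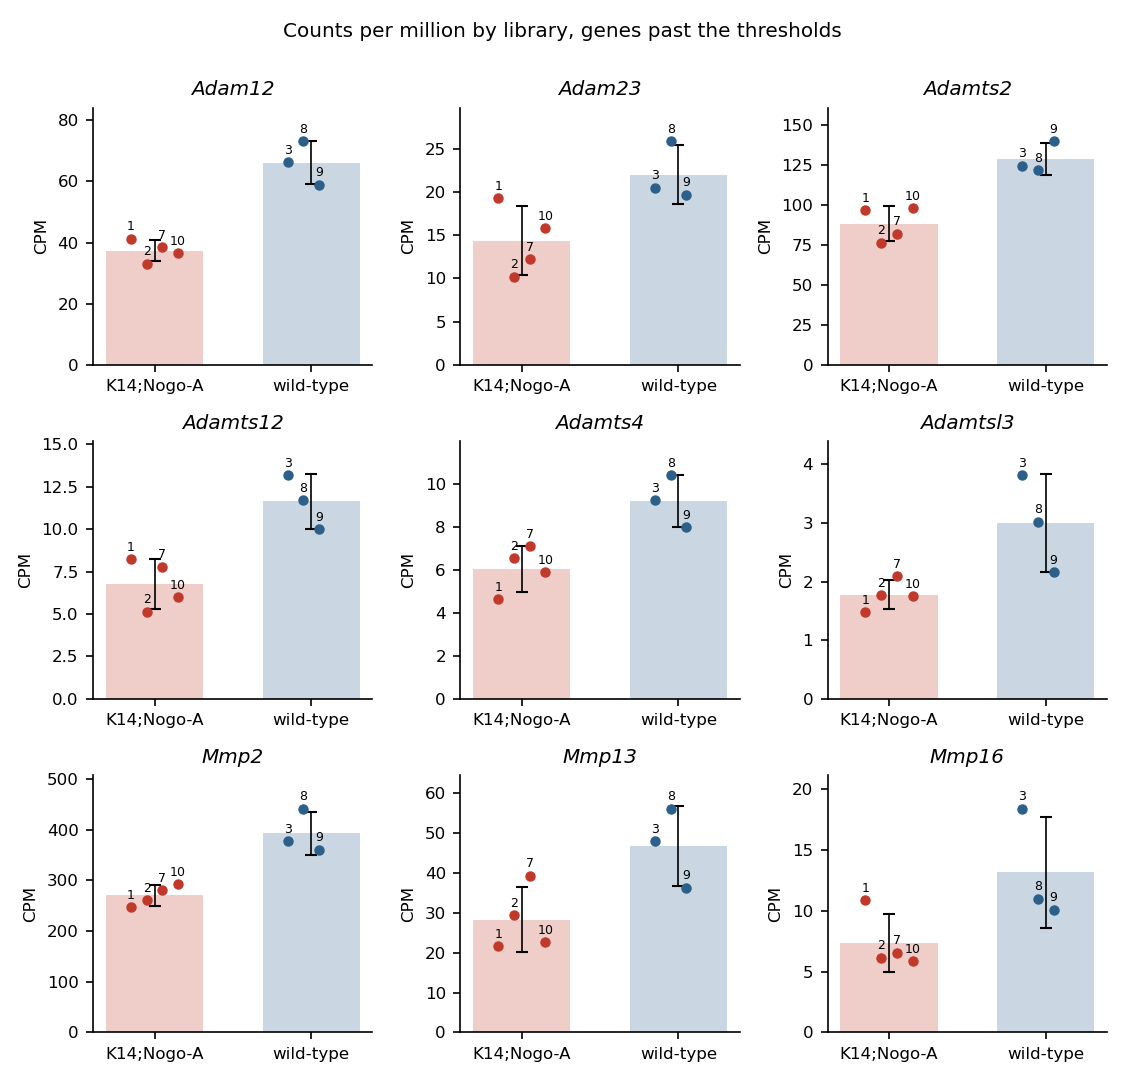
CPM in each library for the 9 genes past the study's thresholds, K14;Nogo-A (red) and wild-type (blue), with replicate numbers, bars at the mean and SD as error bars. The groups are separate in 7 of the 9 genes and overlap in Mmp13 and Mmp16.

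Among the MMPs, the gelatinase Mmp2 was lower at the thresholds. It had 247.3, 261.1, 280.3 and 292.6 CPM in K14;Nogo-A replicates 1, 2, 7 and 10 versus 376.7, 441.2 and 360.8 CPM in wild-type replicates 3, 8 and 9. The groups were well separated, and the log2 fold change was -0.54 (SE 0.10, edgeR adjusted p = 0.152). With K14;Nogo-A replicate 1 left out (-0.50), or replicate 8 of the wild-type (-0.44), it missed the fold threshold, narrowly for the first of them. Mmp14, which with TIMP-2 forms the complex that activates proMMP-2, had 463.7 to 527.7 CPM in K14;Nogo-A versus 518.0 to 605.5 CPM in wild-type (log2 fold change -0.19, 95% interval -0.41 to 0.02, edgeR adjusted p = 0.428). The ratio of Mmp2 to Mmp14 in RPKM was 0.943 to 1.02 in the K14;Nogo-A libraries and 1.05 to 1.42 in the wild-type libraries. This ratio was chosen with the values known and was not tested.

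Mmp13, a collagenase of osteoblasts and hypertrophic chondrocytes, was also lower at the thresholds. Its level was 21.7, 29.4, 39.3 and 22.6 CPM in K14;Nogo-A replicates 1, 2, 7 and 10 versus 48.0, 56.1 and 36.3 CPM in wild-type replicates 3, 8 and 9. K14;Nogo-A replicate 7 was above wild-type replicate 9, so the groups overlapped, and the log2 fold change was -0.73 (SE 0.21, edgeR adjusted p = 0.237). The promoter of Mmp13 is shown because it carries both an AP-1 site, which is known to act in the control of collagenase genes, and a TATA box (RefSeq, GRCm38.p6, 250 bases before to 50 after the start, the 2 motifs in capitals).
Mmp13 promoter (chr9:7272264-7272563, plus strand): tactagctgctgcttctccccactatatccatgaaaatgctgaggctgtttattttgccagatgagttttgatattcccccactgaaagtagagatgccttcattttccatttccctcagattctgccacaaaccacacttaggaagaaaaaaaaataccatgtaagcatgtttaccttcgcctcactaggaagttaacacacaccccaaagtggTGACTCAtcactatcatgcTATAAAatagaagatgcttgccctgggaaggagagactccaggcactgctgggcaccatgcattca
The AP-1 letters TGANTCA start 35 bases and the TATA letters TATAAA 16 bases before the annotated start. Promoter windows were found for 32 of the 53 genes (35 windows), and on either strand TGANTCA was in 2 of these 35, those of Mmp13 and Adam19, and in 7.81% of all 32851 windows. TATAAA was in 4 of the 35 and in 13.6% of all windows. The Sp1-type letters GGGCGG were in 25 of the 35 and in 35.7% of all windows. The 2 motifs share no base in the Mmp13 window.

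Mmp16, which encodes the membrane-type enzyme MT3-MMP, had the largest fold change in size of the 53 genes. It had 10.9, 6.14, 6.56 and 5.84 CPM in K14;Nogo-A replicates 1, 2, 7 and 10 versus 18.4, 11 and 10.1 CPM in wild-type replicates 3, 8 and 9. K14;Nogo-A replicate 1 lay within the wild-type range, and wild-type replicate 3 was far above the other libraries. The log2 fold change was -0.85 (SE 0.26, edgeR adjusted p = 0.25), and without wild-type replicate 3 it was -0.53 and missed the p threshold.

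Mmp9, the gelatinase typical of osteoclasts, varied widely within K14;Nogo-A. It had 116.8, 276.6, 421.7 and 253.1 CPM in K14;Nogo-A replicates 1, 2, 7 and 10 versus 296.0, 446.6 and 338.3 CPM in wild-type replicates 3, 8 and 9. The log2 fold change was -0.43 with a 95% interval of -1.42 to 0.56. Acp5 and Ctsk, 2 genes that define osteoclasts, were lowest in K14;Nogo-A replicate 1 (73.7 and 111.4 CPM) and highest in K14;Nogo-A replicate 7 (272.3 and 319.5 CPM) of all libraries. Over the 8 osteoclast markers the summed level was 196.0 to 620.8 CPM in K14;Nogo-A versus 347.8 to 545.8 CPM in wild-type, none of them was at 0, and their part in the Mmp9 values was not tested.

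**Figure D5:**
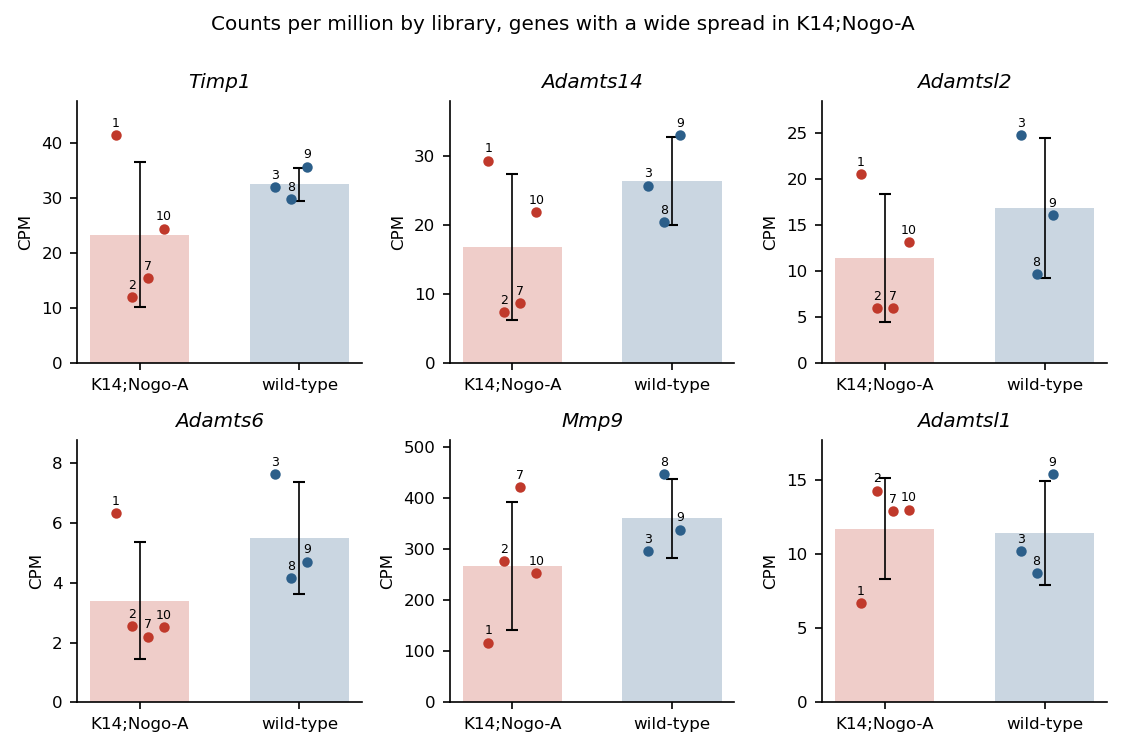
CPM in each library for 6 genes with a wide spread among the K14;Nogo-A libraries, K14;Nogo-A (red) and wild-type (blue), with replicate numbers, bars at the mean and SD as error bars. K14;Nogo-A replicate 1 is the highest of its group in Timp1, Adamts14, Adamtsl2 and Adamts6 and the lowest in Mmp9 and Adamtsl1.

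All 3 TIMP genes that were measured had negative fold changes, and none was past the thresholds. Timp2, the inhibitor that also serves as the bridge between MT1-MMP and proMMP-2, had 195.8, 252.3, 261.9 and 273.2 CPM in K14;Nogo-A replicates 1, 2, 7 and 10 versus 296.9, 330.9 and 306.5 CPM in wild-type replicates 3, 8 and 9. The groups did not overlap, and the log2 fold change was -0.34 (SE 0.12, edgeR adjusted p = 0.28). Timp3, the matrix-bound inhibitor that also acts on ADAM17 and aggrecanases, had 44.5 to 77.7 CPM in K14;Nogo-A versus 71.1 to 99.0 CPM in wild-type (log2 fold change -0.45, SE 0.20, edgeR adjusted p = 0.392). Its exons share 1733 bases with those of Syn3 on the opposite strand, a synapsin gene. Timp4 had at most 4 counts in a library.

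Timp1, a secreted inhibitor that is weak against membrane-type MMPs, had 41.5, 12.1, 15.5 and 24.5 CPM in K14;Nogo-A replicates 1, 2, 7 and 10 versus 32, 29.9 and 35.8 CPM in wild-type replicates 3, 8 and 9. K14;Nogo-A replicate 1 was above all wild-type libraries and the other 3 K14;Nogo-A libraries were below them, so that the log2 fold change of -0.48 had a 95% interval of -1.46 to 0.50. In Adamtsl2 and Adamts6 replicate 1 was likewise the highest K14;Nogo-A library, with 20.6 CPM against 6.01 to 13.2 CPM in Adamtsl2 and 6.32 CPM against 2.20 to 2.56 CPM in Adamts6. Adamts6, an enzyme linked to fibrillin microfibrils, was picked for this comparison after its values were seen. The ratio of the highest to the lowest K14;Nogo-A library was 3.96 in Adamts14, 3.61 in Mmp9, 3.44 in Timp1, 3.42 in Adamtsl2 and 2.88 in Adamts6, the 5 highest ratios of the 53 genes. Ameloblast markers were at a mean log2 CPM of 7.17 in replicate 1 and of 7.66 to 8.28 in the other K14;Nogo-A libraries. Odontoblast and osteoblast markers were at 6.61 in replicate 1 and at 5.17 to 6 in the others. Wild-type libraries were at 6.91 to 7.42 for the ameloblast markers and 6.48 to 7.02 for the odontoblast and osteoblast markers. For both lists replicate 1 thus lay within the wild-type range, unlike the other K14;Nogo-A libraries. Dmp1, Bglap and Phex, which odontoblasts and osteoblasts express, were, like Adamts14 and Timp1, highest in replicate 1 and next highest in replicate 10, with 489.7, 373.5 and 276.8 CPM in replicate 1, 187.3, 213.8 and 167.3 CPM in replicate 10, and at most 97.7, 41.6 and 41.4 CPM in replicates 2 and 7. These 3 were picked after their values were seen. Of the other tested genes of the odontoblast and osteoblast list, Sp7 and Nes had the same order. Ibsp and Spp1 were instead highest in replicate 7 (193.9 and 117.7 CPM, against 166.1 and 77.7 CPM in replicate 1). Alpl was lowest in replicate 1 (671.6 CPM). Replicate 1 was also the 1 K14;Nogo-A library with 10 or more counts of each of the Y-linked genes, and Timp1 lies on the X chromosome. The parts of ameloblasts, of odontoblasts and osteoblasts, and of sex in the spread were not tested.

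The levels of Mmp2 and Mmp14 were also set against that of their inhibitor, without a test. The ratio of Mmp2 to Timp2 in RPKM was 1.28 ± 0.119 in K14;Nogo-A versus 1.46 ± 0.0907 in wild-type (SD, n = 4 and n = 3 pups), with ranges of 1.2 to 1.46 and 1.36 to 1.54 that overlap. The ratio of Mmp14 to Timp2 was 1.31 ± 0.159 in K14;Nogo-A versus 1.17 ± 0.107 in wild-type, again with overlapping ranges.

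Genes that act with these enzymes were followed in 8 lists. In none of the lists did a gene rise or fall at an adjusted p under 0.05. The 12 fibrillar procollagens and their other proteinases had -0.49 as their median log2 fold change, and 3 were lower at the thresholds: Col5a1 (-0.57, SE 0.09), Col5a2 (-0.61, SE 0.14) and Col11a1 (-0.83, SE 0.33). The first of these and Col5a2 encode chains of type V collagen, which starts collagen fibrils, and Col11a1 a chain of type XI collagen. The main chains of type I collagen, Col1a1 and Col1a2, had -0.92 (SE 0.51) and -0.97 (SE 0.46) and did not pass.

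The 8 proteoglycan substrates of ADAMTS enzymes that were tested had a median of -0.60, all 8 negative, and 2 were lower at the thresholds. These were Bgn, the gene of biglycan (-0.69, SE 0.23), and Lum, the gene of lumican (-0.58, SE 0.23). Of 12 fibrillin microfibril genes, with a median of -0.21, 3 were lower at the thresholds: Fbn1 (-0.60, SE 0.14), Fbn2 (-0.60, SE 0.14) and Efemp1 (-0.53, SE 0.23), which encode the 2 mouse fibrillins and fibulin-3. The most abundant gene of this list per length, Mfap2, had -0.07 (SE 0.11), and Papln, papilin, had 0.87 (SE 0.51). Several genes of these 3 lists, Col1a1, Lum and Fbn1 among them, are also in the mesenchyme marker list.

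Lists linked to the ADAM sheddases had medians above 0. The 9 tested partners of ADAM10 and ADAM17 had a median of 0.22 with 1 negative value, that of Reck, an inhibitor of these enzymes and of MMPs (-0.40, SE 0.10). Tspan15, a tetraspanin that directs ADAM10 to cadherins, was higher at the thresholds (0.55, SE 0.19), and Tspan14, the most abundant of the list, had 0.22 (SE 0.12). Among 6 tested EGF receptor ligands the median was 0.11, and Nrg1, neuregulin 1, was higher at the thresholds (0.87, SE 0.33) at a low level of 1.77 CPM in K14;Nogo-A versus 0.949 CPM in wild-type. Hbegf and Tgfa, the most abundant ligands, had -0.17 (SE 0.16) and -0.08 (SE 0.14).

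The 4 proprotein convertases, which remove the propeptide of many ADAM, ADAMTS and membrane-type MMP enzymes, had a median of 0.03. Pcsk5 was lower at the thresholds (-0.65, SE 0.16), and Furin and Pcsk7 had 0.10 (SE 0.15) and 0.14 (SE 0.10). Of 5 plasminogen system genes Plaur, the urokinase receptor, was higher at the thresholds (0.72, SE 0.24), and Serpine2 had 0.07 (SE 0.13). Of 8 other inhibitors and docking genes Emilin1, an elastic fibre protein, was lower (-0.54, SE 0.11), while Bsg, an inducer of MMPs, and Cd44, a docking site of MMP-9, had 0.31 (SE 0.11) and 0.33 (SE 0.15).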

How the data were processed

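Poly(A) RNA of the posterior incisor epithelium was measured in 7 libraries, 1 per pup. The authors deposited unnormalised read counts for each Ensembl gene, for which they used bcl2fastq 2.19, Trimmomatic (processing notes) or fastp (paper), STAR 2.7.1, GRCm38 and featureCounts. No strand setting is stated for featureCounts, so reads of genes with overlapping exons cannot be assigned with certainty. Symbols, coordinates and exon lengths were joined from GENCODE M21. Of 25700 IDs 36 had no symbol and held 0.0348% of the counts.

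Genes that reached 10 counts in 50% or more of 1 genotype's libraries were tested with edgeR 4.0.16 in R 4.3.3 (TMM, robust quasi-likelihood test, no covariate, Benjamini-Hochberg adjustment over 14791 genes). The common biological coefficient of variation was 15.2%. The study gives its fold threshold of 0.5 both as a fold change and as a log2 ratio, and the log2 form was used. CPM used TMM library sizes and log2 CPM a prior count of 2. Exact permutation tests took all 35 ways to divide 7 libraries into 4 and 3. The alternatives were the likelihood-ratio test of edgeR, DESeq2 1.42.0, voom of limma 3.58.1, factors by RLE or by the upper quartile, 2 other count filters, a log2 fold threshold of 1, mesenchyme markers or Y-linked genes as a covariate, and each library left out. The fit was tested on simulated data.

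The genes, lists and tests were chosen with earlier results of these data known. Genes named are those past the thresholds or with an unadjusted p of 0.05 or less, the 4 most abundant of each family per length, the TIMPs, and Adam10, Adam17, Adam12, Mmp2, Mmp9, Mmp13 and Mmp14, and from the partner lists those past the thresholds and the 2 most abundant.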

Additional observations from a re-analysis of the deposited data

Results flagged for a closer look

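Within the 4 K14;Nogo-A libraries, the gap between the lowest or highest value and its neighbour was set against the whole range for each of the 29 genes named by rule, on log2 CPM. Adamtsl1 exceeded the critical value of Dixon's test for 4 values, with 6.69 CPM in K14;Nogo-A replicate 1, against 14.3, 12.9 and 13 CPM in replicates 2, 7 and 10 (gap over range 0.863). In wild-type it had 10.2, 8.74 and 15.4 CPM. Chance flags about 1 in 20 groups, and the 3 wild-type libraries were too few for this test.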

How the results depend on the processing

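The number of genes that fell was 1 in edgeR's quasi-likelihood test, 5 with the likelihood-ratio test and 6 with DESeq2, and 0 with the mesenchyme markers as a covariate. Over all 14791 genes tested, the number called at an adjusted p under 0.05 was 5, 166, 288 and 0 in the same order. The counts among the 53 thus rose and fell with those over all genes. Besides Adam12, the genes called with both the likelihood-ratio test and DESeq2 were Mmp2, Adamts2, Adamts9 and Adamts12, and DESeq2 also called Mmp13. Leaving out 1 library at a time gave 0 to 7 genes that fell, where 0 to 221 were called over all genes. RLE or upper-quartile factors, limma-voom, both other count filters and the Y-linked covariate each gave 1, Adam12 in each case, with 4 to 21 called over all genes. No alternative found a gene that rose. The 9 genes lower at the thresholds were the same 9 with RLE and upper-quartile factors, the likelihood-ratio test and both count filters, were among 10 with DESeq2 and 13 with limma-voom, and numbered 8 to 13 with 1 library left out. With a log2 fold threshold of 1 there were 0. The share over all genes at the thresholds is given for the main fit only, so these counts are not read as particular to the 53. The filter of 10 counts in all 7 libraries left 50 of the 53 genes.

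With the mesenchyme markers as a covariate, 1 gene was lower (Adamts9) and 1 higher (Adamts19) at the thresholds, without the share over all genes in this fit. The sign turned in 15 of the 29 named genes. Of the 15 with an unadjusted p of 0.05 or less, 8 turned, to Adam23 (0.31), Adamts4 (0.23), Adamts3 (0.32), Adamts1 (0.51), Adamtsl3 (0.11), Mmp2 (0.24), Mmp13 (0.52) and Timp2 (0.17). The other 7 were Mmp9 (0.98), Adam9 (0.63), Timp3 (0.28), Adam17 (-0.19), Adam10 (-0.25), Adamtsl5 (-0.50) and Adamtsl1 (-1.15). That of Adam12 was -0.19. In the 15 named genes whose sign turned, the standard errors in this fit were 0.33 to 1.67 and the unadjusted edgeR p 0.108 to 0.913. None of the turned values was thus distinct from 0. The markers of the 2 genotypes do not overlap, so this fit extrapolates. No paired analysis was made, because the litter of each pup is not stated. With 4 and 3 libraries, genes under about 1 CPM, such as Mmp8 and Adam32, had standard errors of 0.42 and 0.44.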
